A study of Mus musculus with 2 samples.

Results

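The 30 genes described here encode the enzymes of cholesterol synthesis, their control proteins and the enzymes that make fatty acids. They were chosen by symbol from the 32285 genes listed for each of 2 single-cell RNA libraries of mouse optic nerve, and all 30 were found in both. Each library came from optic nerves of 10 mice, pooled at 12 weeks of age. One group of mice had been given an antibody against PD-1, an inhibitory receptor of T cells, and the other an antibody against TIGIT, another such receptor. Both groups were Nf1-OPG mice (Nf1flox/neo; GFAP-Cre), a model of the optic glioma of neurofibromatosis. In this model the first Nf1 copy is interrupted in exon 31 by a neomycin cassette in every cell, and the second is deleted by Cre under the GFAP promoter in neuroglial progenitors and the cells that come from them. Which of the cells described here carried that deletion was not measured. Live cells were sorted by 7-AAD, a dye that enters dead cells, and the counts come from the 5′ ends of transcripts. The protocol in the labels speaks of meningeal dura too, and whether dura cells entered these libraries is not stated. Control genotypes and untreated mice were not analysed here.

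Cholesterol is made from acetyl-CoA through mevalonate, farnesyl diphosphate, squalene and lanosterol, and the same precursor pool feeds fatty acids through malonyl-CoA. The transcription factors SREBP1 and SREBP2, from Srebf1 and Srebf2, switch on most of these genes when sterols in the endoplasmic reticulum are low, and INSIG proteins hold them back when sterols are plentiful. Little cholesterol crosses the blood-brain barrier, so the sterol that compact myelin needs is made within the nervous system. Oligodendrocytes, the myelin-forming glia, are among the cells that make it.

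Promoter sequence from RefSeq (GRCm38.p6, the 250 bases before each annotated start) was matched for 24 of the 30 genes, in 29 windows. Sqle, Fdft1, Fdps, Stard4, Scd1 and Scd2 had no entry. The letters TCACNCCAC, a form of the sterol regulatory element that SREBPs bind, CCAAT, which NF-Y binds, and GGGCGG, the GC box of SP1, were searched on both strands. TCACNCCAC stood in 1 of the 29 windows, that of Hmgcs1, and in 1.05% of all 32851 promoter windows. CCAAT stood in 21 of the 29 windows and in 33.8% of all windows, and GGGCGG likewise in 21 of the 29 and in 32.7% of all. These counts take in windows of Idi1, Tm7sf2 and Dhcr7 whose 250 bases all lie in annotated exons. They also take in that of Acaca, whose annotated start may be that of an internal exon. The windows of 6 genes are shown because none of their bases lies in an annotated exon and because these genes span the patterns given below: Hmgcs1, Mvd and Sc5d stood at least 2-fold lower where the interferon response of oligodendrocytes was strongest, Fasn and Ebp did not, and Lbr was the member higher in immune cells than in glia. They lie at chr13:119690101-119690350 (plus strand) for Hmgcs1, chr8:122443423-122443672 (minus strand) for Mvd, chr9:42264301-42264550 (minus strand) for Sc5d, chr11:120824548-120824797 (minus strand) for Fasn, chrX:8193513-8193762 (minus strand) for Ebp and chr1:181842402-181842651 (minus strand) for Lbr. Each is written 5′ to 3′ on the strand of its gene, ending at the base before the start, with TCACNCCAC and CCAAT or their reverse complements in capitals. In Hmgcs1 the TCACNCCAC match begins 137 bases before the start and overlaps none of the 3 CCAAT matches, and in Fasn a pair of CCAAT matches on opposite strands overlap.
Hmgcs1: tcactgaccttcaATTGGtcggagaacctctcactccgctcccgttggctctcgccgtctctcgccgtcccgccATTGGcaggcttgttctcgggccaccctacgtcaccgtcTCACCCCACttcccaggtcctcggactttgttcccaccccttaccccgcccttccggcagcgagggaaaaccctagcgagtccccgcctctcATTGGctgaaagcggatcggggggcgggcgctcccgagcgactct
Mvd: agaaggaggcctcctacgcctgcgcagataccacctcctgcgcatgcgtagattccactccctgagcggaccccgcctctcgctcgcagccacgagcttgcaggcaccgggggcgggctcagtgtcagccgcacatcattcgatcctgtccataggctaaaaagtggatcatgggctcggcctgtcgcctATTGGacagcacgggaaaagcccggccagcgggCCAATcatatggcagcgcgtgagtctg
Sc5d: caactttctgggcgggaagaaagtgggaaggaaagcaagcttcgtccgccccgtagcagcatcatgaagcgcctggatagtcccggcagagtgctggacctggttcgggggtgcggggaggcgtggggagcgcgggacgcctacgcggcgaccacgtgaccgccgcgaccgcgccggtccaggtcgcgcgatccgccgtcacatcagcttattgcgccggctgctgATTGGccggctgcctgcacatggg
Fasn: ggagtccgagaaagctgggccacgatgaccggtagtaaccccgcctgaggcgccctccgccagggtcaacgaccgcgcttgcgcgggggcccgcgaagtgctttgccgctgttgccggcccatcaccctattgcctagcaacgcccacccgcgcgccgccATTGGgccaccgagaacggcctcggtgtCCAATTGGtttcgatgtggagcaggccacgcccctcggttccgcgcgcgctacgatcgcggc
Ebp: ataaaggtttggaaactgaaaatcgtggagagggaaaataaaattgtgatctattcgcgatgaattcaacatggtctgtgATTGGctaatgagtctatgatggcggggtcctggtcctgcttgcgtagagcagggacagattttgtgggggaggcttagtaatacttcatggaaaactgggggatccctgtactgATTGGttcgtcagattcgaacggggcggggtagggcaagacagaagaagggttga
Lbr: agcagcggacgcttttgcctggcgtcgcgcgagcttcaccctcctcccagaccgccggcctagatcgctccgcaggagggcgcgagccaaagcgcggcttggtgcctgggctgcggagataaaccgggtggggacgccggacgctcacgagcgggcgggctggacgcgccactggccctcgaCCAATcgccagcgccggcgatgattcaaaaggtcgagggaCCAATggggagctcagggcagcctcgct
A match describes these letters only, and no binding was measured.

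The files held 13997 barcodes with 85031565 UMIs for anti-PD-1 and 7915 with 40733655 for anti-TIGIT, and 163 barcode sequences occurred in both. After filters, 13275 and 7495 cells were retained, with median depths of 4453 and 4126 UMIs. Cells were assigned to classes by gates on marker genes, which took in 2280 and 1871 oligodendrocytes, 449 and 69 oligodendrocyte precursors and 12 and 11 immune classes of at least 50 cells. All 7 oligodendrocyte and all 6 precursor markers were detected in their classes in both libraries. Astrocytes, at 42 and 23 cells, were too few to be used, and 29.1% and 27.6% of retained cells met no gate. Each group is 1 library, so no difference has a replicate check, no test was possible and the Cell Ranger version (8.0.0 and 8.0.1 in the file headers) cannot be told apart from the treatment. Levels are UMIs per 1000000 UMIs of a class (CPM), not scaled for transcript length, so they are compared between cells and not between genes. Ranges in parentheses are 95% intervals, which cover no error but that of counting. Ratios are log2 ratios of (CPM + 5), all 30 genes reached the minimum of 50 counts in oligodendrocytes, and where a pair of values is given the anti-PD-1 library comes first. The interval beside a ratio of a pair of classes, of sets of cells or of the libraries is that of the plain CPM ratio, so it is not centred on the value. The interval beside a ratio of mean glia over mean immune classes is that of the (CPM + 5) ratio itself and is centred on it.

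Most of the 30 genes were far higher in glia than in immune cells, in both libraries alike. Scd2, Hmgcs1, Msmo1, Fdft1 and Sqle had the largest ratios among genes of their groups, while Lbr was higher in immune cells and Ggps1, Stard4 and Ebp were close to even. Set against the mean of the immune classes, the mean of oligodendrocytes and precursors was at least 2-fold higher for 22 of 30 genes for anti-PD-1 and 24 for anti-TIGIT. Among all genes with at least 50 counts, 25.2% and 27.3% passed that size, and 13.5% and 17.4% were at least 2-fold lower in glia, which no member was. The median ratio of the members was 2.03 and 2.11, beside 0.32 and 0.35 over all genes. Both glial classes lay above every immune class for 21 and 22 of the 30 genes, 21 of them in both libraries, against 21% and 21.3% of all genes. Oligodendrocytes were the highest class of all for 20 and 22 members, against 14.2% and 15.7% of all genes.

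**Figure D1:**
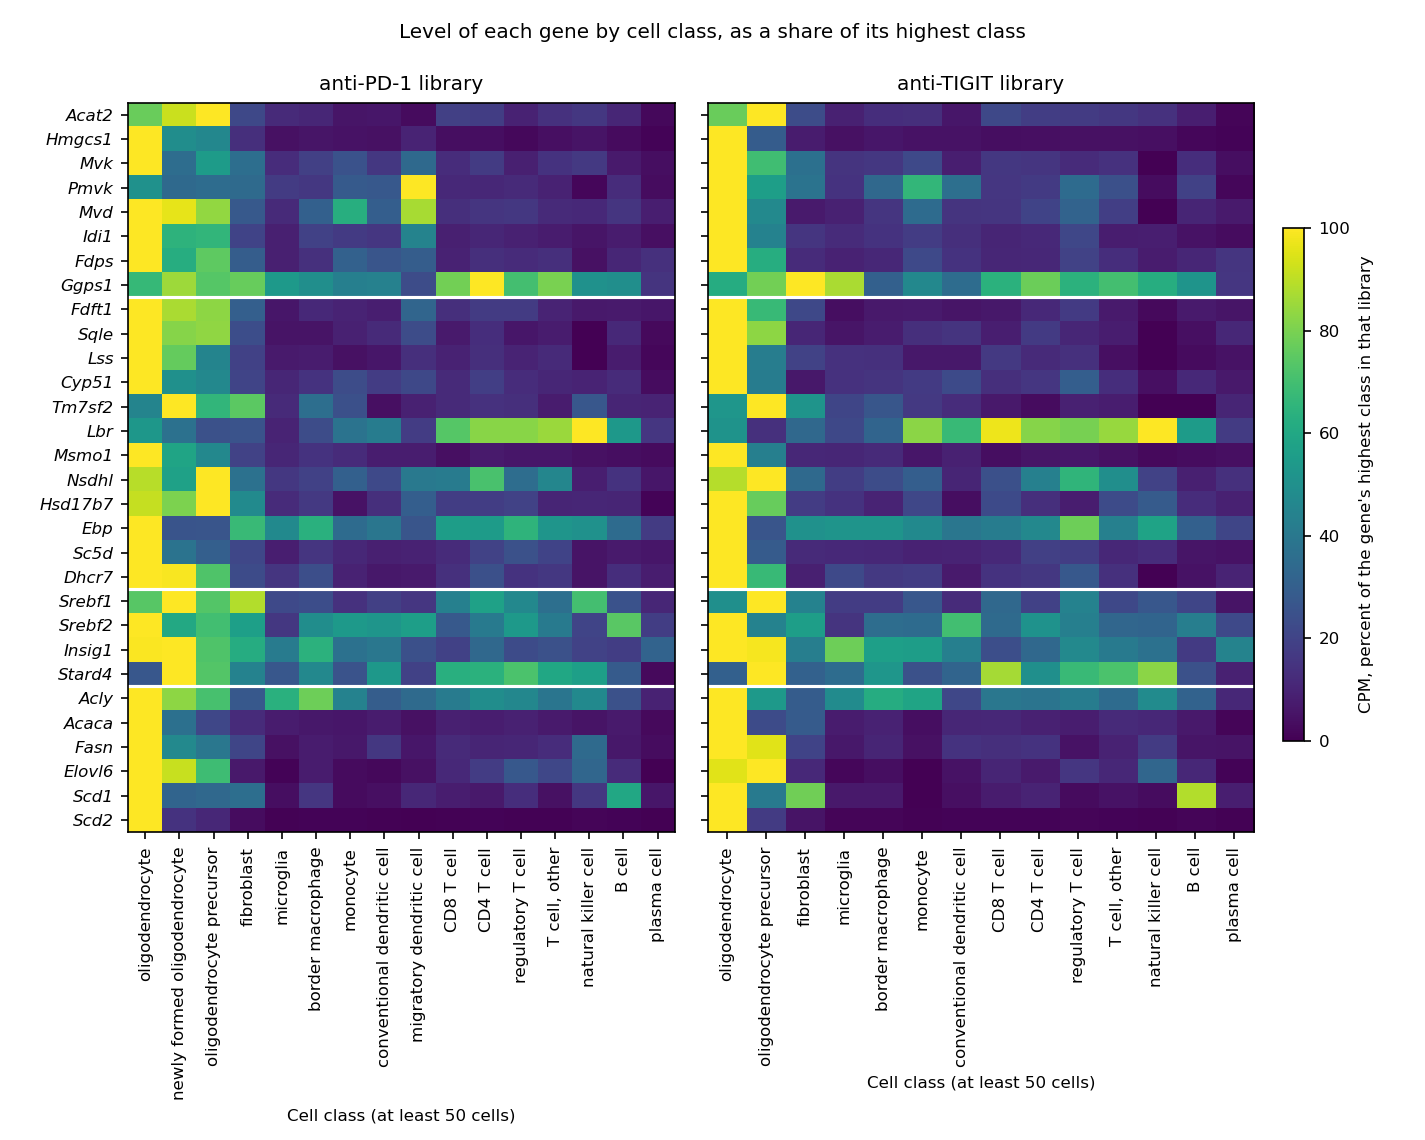
Level of each of the 30 genes (rows, grouped by role) in each cell class with at least 50 cells (columns), in each library; colour is CPM as a percent of the gene's highest class in that library. Most rows are brightest in oligodendrocytes, the highest class for 20 and 22 genes, while Lbr is brightest in natural killer cells and Pmvk, in the anti-PD-1 library, in migratory dendritic cells.

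In the mevalonate arm, Hmgcs1, the cytosolic HMG-CoA synthase, stood at 749 (736 to 762) and 894 (878 to 909.6) CPM in oligodendrocytes. Precursors held 347 (325 to 371) and 261 (204 to 329) CPM of it, and immune classes ranged over 7.56 to 76.1 and 10.3 to 52.6 CPM. The groups did not overlap, and the glia over immune ratio was 3.87 (3.73 to 4.02) and 3.85 (3.68 to 4.02). Acat2, the cytosolic thiolase that joins acetyl-CoA units, was at 68.6 and 79.6 CPM in oligodendrocytes and 88.9 and 103 CPM in precursors, with ratios of 2.54 and 2.42. Mvk, mevalonate kinase, was at 64.5 and 74.2 CPM in oligodendrocytes and 35.3 and 51.5 CPM in precursors, with ratios of 1.86 and 2.25. Both kept every immune class below the glial classes. Mvd, the decarboxylase that yields isopentenyl diphosphate, was at 31.1 and 46.9 CPM in oligodendrocytes and 26.0 and 22.1 CPM in precursors, with ratios of 1.35 and 1.65, but migratory dendritic cells of the anti-PD-1 library (27.0 CPM) reached the level of precursors. Idi1, the isomerase of the isoprene units, was at 248 and 340.0 CPM in oligodendrocytes and 163 and 151 CPM in precursors, with ratios of 2.47 and 2.51. Fdps, farnesyl diphosphate synthase, was at 324 and 425 CPM in oligodendrocytes and 244 and 265 CPM in precursors, with ratios of 2.38 and 2.51, and neither gene reached a glial level in an immune class.

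Pmvk and Ggps1 departed from this pattern. Pmvk, phosphomevalonate kinase, was at 110.4 and 112 CPM in oligodendrocytes and 76.9 and 62.5 CPM in precursors, and its ratios were 0.96 and 1.52. Its highest class in the anti-PD-1 library was migratory dendritic cells, with 218 (175 to 269) CPM in 72 cells, and in the anti-TIGIT library, where that class held 32 cells and was not used, monocytes came second with 73.9 (48.7 to 108) CPM. Conventional dendritic cells lay between, at 60.3 and 41.0 CPM, and lymphocyte classes at 39.0 CPM or below. Ggps1, which makes the geranylgeranyl group used to anchor small GTPases to membranes and not sterol, was at 42.6 and 43.5 CPM in oligodendrocytes and 47.0 and 55.2 CPM in precursors. CD4 T cells held 63.6 and 54.4 and microglia 34.5 and 61.2 CPM of it, so glia and immune classes overlapped, with ratios of 0.32 (0.15 to 0.49) and 0.32 (-0.09 to 0.72).

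In the sterol arm, the enzymes from squalene to lanosterol shared the pattern. Fdft1, squalene synthase, the first step that commits to sterol, was at 211 and 301 CPM in oligodendrocytes and 175 and 202 CPM in precursors, against immune ranges of 12.7 to 68.7 and 7.30 to 51.0, with ratios of 2.68 (2.52 to 2.84) and 3.23 (2.997 to 3.47). Sqle, squalene epoxidase, was at 106 and 142 CPM in oligodendrocytes and 88.1 and 118 CPM in precursors, with ratios of 2.86 and 2.90. Lss, which closes the sterol rings, was at 36.2 and 43.5 CPM in oligodendrocytes and 16.3 and 18.4 CPM in precursors, with ratios of 2.003 and 2.04. No immune class overlapped the glia for these genes. Cyp51, lanosterol demethylase, was at 217 and 272 CPM in oligodendrocytes and 101 and 114 CPM in precursors, against 7.56 to 50.3 and 10.9 to 81.0 in immune classes, with ratios of 2.22 and 2.13. Msmo1, the methylsterol oxidase, was at 329 and 453 CPM in oligodendrocytes and 154 and 195 CPM in precursors, against 9.87 to 47.7 and 10.9 to 54.2, with ratios of 3.08 (2.92 to 3.23) and 3.32 (3.12 to 3.51). Nsdhl and Hsd17b7, which act with it in removing the methyl groups, kept the order of the classes. Nsdhl was at 37.7 and 49.0 CPM in oligodendrocytes and 42.3 and 55.2 CPM in precursors with ratios of 1.37 and 1.49, and Hsd17b7 was at 30.1 and 38.3 CPM in oligodendrocytes and 33.0 and 29.4 CPM in precursors with ratios of 1.94 and 1.84. For Nsdhl the gap was narrow, since CD4 T cells held 30.2 CPM in the anti-PD-1 library and regulatory T cells 36.0 in the anti-TIGIT library. Sc5d, the desaturase near the end of the pathway, was at 204 and 232 CPM in oligodendrocytes and 61.7 and 66.2 CPM in precursors with ratios of 2.19 and 2.29, and Dhcr7, which makes cholesterol from its last precursor, at 68.6 and 76.5 CPM in oligodendrocytes and 49.7 and 51.5 CPM in precursors with ratios of 2.19 and 2.15.

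Lbr and Ebp were the exceptions of this arm. Tm7sf2 and Lbr encode sterol reductases with the same activity, and LBR is also a protein of the inner nuclear membrane that holds heterochromatin. Tm7sf2 was at 11.9 and 17.4 CPM in oligodendrocytes and 17.5 and 33.1 CPM in precursors and at most 9.54 and 8.86 CPM in an immune class, with ratios of 1.13 (0.84 to 1.42) and 1.84 (1.29 to 2.397). Lbr ran the other way: natural killer cells held 111 (75.6 to 158) and 106 (70.9 to 152) CPM and CD8 T cells 82.0 (75.3 to 89.2) and 103 (90.3 to 117) CPM. Oligodendrocytes held 58.8 (55.3 to 62.5) and 54.4 (50.5 to 58.5) CPM of Lbr, precursors 27.6 and 14.7 and microglia 11.2 and 23.1, and the ratios were -0.38 (-0.53 to -0.23) and -0.91 (-1.21 to -0.61). The intervals of natural killer cells and of each T cell class overlapped in both libraries, and those of oligodendrocytes and B cells (59.4 and 58.3 CPM) did too. Ebp, the sterol isomerase, was highest in oligodendrocytes at 120.5 and 139 CPM, but regulatory T cells held 78.4 and 108 and precursors only 31.8 and 36.8 CPM, with ratios of 0.45 and 0.42.

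The control and transport genes were spread more evenly. Srebf2, which drives the sterol genes, was at 105 and 125 CPM in oligodendrocytes and 73.4 and 55.2 CPM in precursors, with up to 78.6 (B cells) and 87.0 CPM (conventional dendritic cells) in immune classes and ratios of 0.94 and 0.87. Srebf1, which drives fatty acid genes, was at 34.2 and 40.2 CPM in oligodendrocytes and 33.8 and 80.9 CPM in precursors, with ratios of 0.98 and 1.498. Both factors had smaller ratios than most of the enzymes they are known to control. Insig1, the feedback protein, was at 90.6 and 108 CPM in oligodendrocytes and 66.0 and 107 CPM in precursors, while the highest immune class was border macrophages in the anti-PD-1 library (58.6 CPM) and microglia in the anti-TIGIT library (84.4 CPM), with ratios of 1.31 and 1.11. Stard4, which carries cholesterol between membranes, was at only 10.3 and 13.6 CPM in oligodendrocytes and at 27.9 and 44.1 in precursors, and CD8 T cells held 24.1 and 38.1 CPM, with ratios of 0.17 (-0.08 to 0.42) and 0.35 (-0.22 to 0.91).

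Among the fatty acid genes, Scd2, a desaturase that puts the double bond into stearate and palmitate and is the form typical of brain, gave the largest ratio of the 30 genes in both libraries. It stood at 2950.0 (2924 to 2975) and 2750.0 (2722 to 2778) CPM in oligodendrocytes, 324 (302 to 347) and 478 (399.5 to 568) in precursors, 101 and 149 in fibroblasts and 8.88 to 39.5 and 10.9 to 40.0 over the immune classes. The ratios were 5.92 (5.76 to 6.07) and 5.68 (5.52 to 5.85). Its near copy Scd1 was at 111 and 107 CPM in oligodendrocytes and 37.7 and 44.1 CPM in precursors, with ratios of 2.06 and 2.09. B cells held 67.0 (54.4 to 81.6) and 94.7 (74.8 to 118) CPM of Scd1, above precursors in both libraries though with overlapping intervals for anti-TIGIT, while the other immune classes stayed at 17.9 CPM or below. How reads shared by Scd1 and Scd2 were counted is not given in the sources used here, so their separate levels are uncertain. Acaca, which makes malonyl-CoA, was at 209.7 and 226 CPM in oligodendrocytes and 44.6 and 51.5 CPM in precursors, against 4.93 to 19.4 and 2.76 to 27.3 in immune classes, with ratios of 2.80 and 2.59. Fasn, fatty acid synthase, was at 125 and 127 CPM in oligodendrocytes and 49.7 and 121 CPM in precursors with ratios of 2.31 and 2.90, and Elovl6, which lengthens palmitate, at 109 and 126 CPM in oligodendrocytes and 75.3 and 132 CPM in precursors with ratios of 2.44 and 2.98. Natural killer cells were the highest immune class for both, at 43.1 and 21.9 CPM of Fasn and 35.9 and 43.8 of Elovl6. Acly, which makes cytosolic acetyl-CoA from citrate, was at 114 and 136 CPM in oligodendrocytes and 80.8 and 73.6 CPM in precursors, but border macrophages (88.6 and 84.1) and microglia (72.4 and 65.6) came near, with ratios of 0.95 and 0.90.

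**Figure D2:**
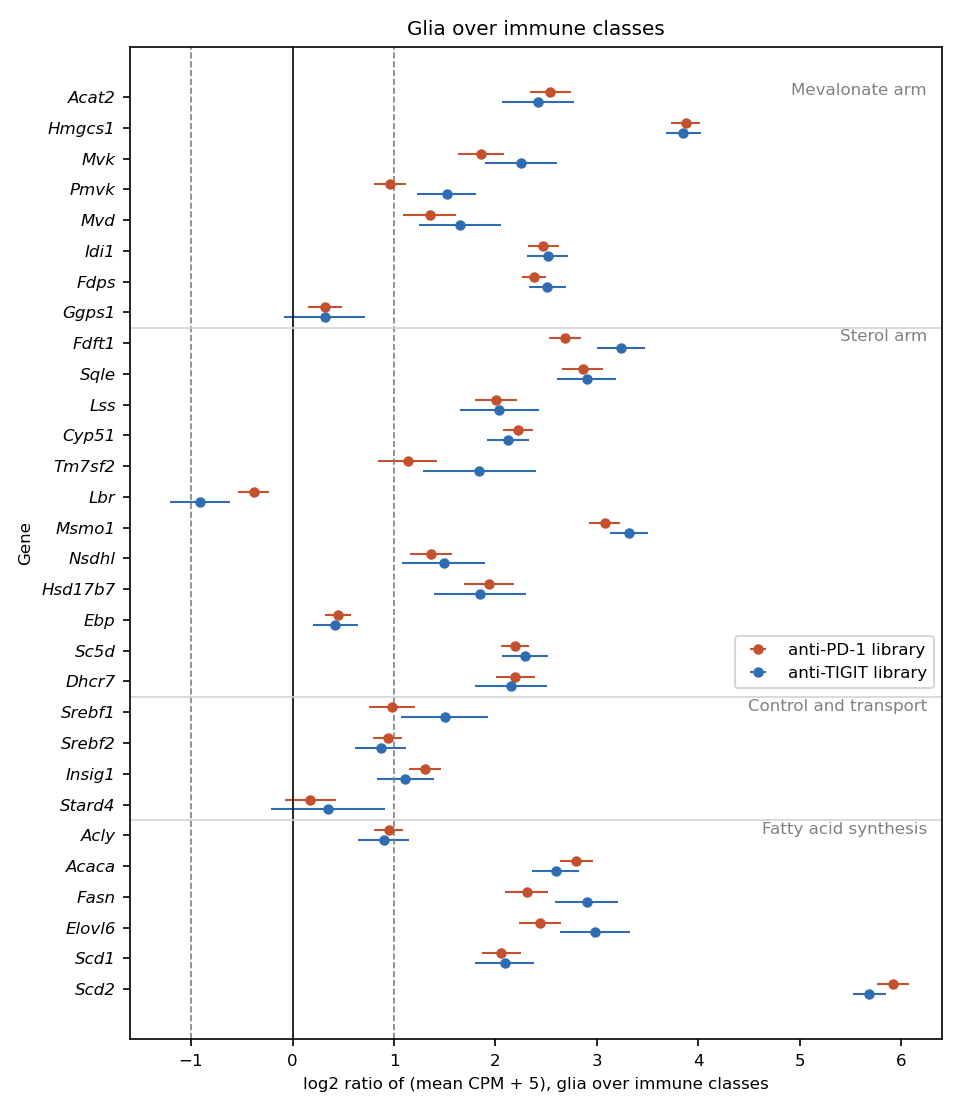
log2 ratio of (mean CPM + 5), glia over immune classes, for each gene in both libraries; points are the ratio, bars 95% intervals of counting error, and dashed lines mark 2-fold. Scd2 lies farthest right, at 5.92 and 5.68, and Lbr alone lies left of 0, at -0.38 and -0.91.

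Free RNA can add UMIs to any droplet, and myelin genes in T cells give its measure. Mog, a myelin gene that immune cells lack, was found in CD8 T cells at 0.405% and 0.213% of its oligodendrocyte level. The same shares of Scd2 would give 11.9 and 5.85 CPM, and CD8 T cells held 22.4 and 22.4. For Hmgcs1 the same floor is 3.03 and 1.90 CPM, below the 27.5 and 34.5 found. The share of Mobp, another myelin gene, was 12.45% and 8.39%. It would give 93.2 and 75.0 CPM of Hmgcs1, above the levels found. Mbp gave a higher share, 33.1% and 22.5%, but golli transcripts of that gene are also made by immune cells. The floor thus depended on the myelin gene used, and neither the Scd2 nor the Hmgcs1 of CD8 T cells is told from background here. After each cell was thinned to 1000 UMIs, 85.7% (84.2 to 87.1) and 86.2% (84.5 to 87.7) of oligodendrocytes held a Scd2 UMI, against 2.31% and 2.19% of CD8 T cells. Before thinning the shares were 96.7% and 97.5% against 7.95% and 7.55%, with median depths of 6869.5 and 6367 UMIs in oligodendrocytes and 3800.5 and 3096 in CD8 T cells. Thinning left out 53 and 12 oligodendrocytes and 10 and 3 CD8 T cells.

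Within the glia, the genes were not simply higher in the mature cells. Oligodendrocytes exceeded precursors at least 2-fold for 9 and 12 of the 30 genes, against 11.3% and 14.2% of all genes. Only Stard4 was at least 2-fold lower, at -1.10 (-1.83 to -1.02) and -1.41 (-2.54 to -0.72), against 19.4% and 18.2% of all genes. Scd2 (3.17 and 2.51), Acaca (2.11 and 2.03), Ebp (1.77 and 1.78) and Sc5d (1.64 and 1.73) had the largest ratios in the anti-PD-1 library. Scd1 (1.45 and 1.19), Hmgcs1 (1.10 and 1.75), Msmo1 (1.07 and 1.20) and Cyp51 (1.07 and 1.22) also passed 2-fold in both libraries, and Lbr (0.97 and 1.59), Idi1 (0.59 and 1.15), Srebf2 (0.49 and 1.11) and Lss (0.95 and 1.05) in the anti-TIGIT library. Fdft1 (0.26 and 0.56) and Sqle (0.25 and 0.26), the entry to squalene, were close to even. Acat2, Nsdhl, Ggps1 and Tm7sf2 had ratios below 0 in both libraries. Fasn was at 1.25 (1.07 to 1.60) for anti-PD-1 and 0.07 (-0.43 to 0.61) for anti-TIGIT, where the precursors were 69 cells. The median over the 30 genes was 0.49 and 0.73, beside -0.18 and -0.21 over all genes. In the anti-PD-1 library, 130 cells met a gate for newly formed oligodendrocytes, whose leading genes held as many precursor markers as markers of their own, and their levels were near those of precursors for Scd2 (428 CPM) and Hmgcs1 (367 CPM).

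Related genes chosen for the same pathways, none of them among the 30, gave the wider picture. Of the further fatty acid genes, 13 of 14 tested for anti-PD-1 and all 13 for anti-TIGIT were at least 2-fold higher in glia. Their medians were 2.04 and 2.20, and 25.2% and 27.3% of all genes passed that size. Those past 2-fold included the elongases Elovl7 (5.06 and 5.30), Elovl1 (1.82 and 1.75) and Elovl5 (1.33 and 1.36). The later enzymes of elongation, Tecr (2.35 and 2.36) and Hsd17b12 (1.85 and 1.82), were among them. They also included the desaturases Fads1 (1.71 and 2.11) and Fads2 (2.36 and 2.95) and Mid1ip1 (3.50 and 3.18), which activates acetyl-CoA carboxylase. The others were Me1 (3.65 and 4.04), Acss2 (2.23 and 1.78) and Slc25a1 (1.70 and 2.20), which supply NADPH, acetyl-CoA and citrate, and Acsl1 (1.81 and 1.89) and Acsl3 (3.32 and 3.06), which activate fatty acids. Acacb, the carboxylase of mitochondria, did not reach 2-fold in the anti-PD-1 library (0.08) and had too few counts in the other. Of the 6 genes of myelin glycolipid synthesis, 5 were at least 2-fold higher in both libraries, from Ugt8a (6.35 and 6.44), Fa2h (6.04 and 6.501) and Gal3st1 (5.11 and 5.45) to Cers2 (2.74 and 2.50) and Degs1 (2.18 and 1.92). Of 10 further sterol genes tested, 2 and 4 were at least 2-fold higher, against 25.2% and 27.3% of all genes. Among them were Erlin2 (1.14 and 1.10) and, in the anti-TIGIT library, the SREBP escort Scap (1.15). Erlin1 was lower in glia at -1.06 and -0.87. Genes of sterol efflux, storage and lysosomal release had medians of -0.27 and -0.37, beside 0.32 and 0.35 over all genes. Mylip, which degrades the LDL receptor, was at least 2-fold lower in both libraries, at -1.77 and -1.86. Npc1 (2.99 and 2.88), which moves cholesterol out of lysosomes, and Abcg1 (1.34 and 1.62), a sterol exporter, were at least 2-fold higher in both libraries. Npc2, the partner of Npc1, was at least 2-fold lower in the anti-PD-1 library (-1.27 and -0.72).

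Between the treatments, oligodendrocytes of the anti-PD-1 library held slightly less of nearly every gene. The anti-PD-1 over anti-TIGIT ratio was below 0 for 27 of 30 genes, against 54.2% of all genes, and its median was -0.23, beside -0.02 over all genes. None reached 2-fold, which 2.2% of all genes did in either direction. Mvd stood at 31.1 (28.6 to 33.8) and 46.9 (43.4 to 50.7) CPM, a ratio of -0.52. Fdft1 stood at 211 (205 to 218) and 301 (292 to 310.2) CPM (-0.50), Msmo1 at 329 (321 to 338) and 453 (442 to 465) (-0.45), Idi1 at 248 (240.4 to 255) and 340.0 (330.3 to 350.0) (-0.45) and Sqle at 106 (101 to 111) and 142 (135 to 148) (-0.41). For these 5 genes the intervals of the libraries did not overlap. Scd2 (0.10), Lbr (0.10) and Scd1 (0.06) were the 3 genes above 0. By group, the medians were -0.31 for the sterol arm, -0.24 for control and transport, -0.23 for the mevalonate arm and -0.06 for fatty acid synthesis. Precursors, with 69 cells in the anti-TIGIT library, were too few for this comparison.

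In immune classes the medians lay between -0.35, in microglia, and -0.07, in border macrophages. In microglia, 24 genes had at least 50 counts and 20 were lower in the anti-PD-1 library, with a median of -0.35, but 69.3% of all microglial genes were lower too and their median was -0.18. Pmvk stood at 37.8 (33.8 to 42.2) and 16.2 (10.6 to 23.8) CPM in microglia, a ratio of 1.01 (0.64 to 1.86), and Insig1 at 37.8 (33.8 to 42.2) and 84.4 (70.7 to 99.9) CPM, a ratio of -1.06 (-1.45 to -0.86). These were the 2 members past 2-fold, as were 4% of all genes. Relative to the median of all microglial genes the ratios were 1.19 for Pmvk and -0.88 for Insig1, so the latter no longer reached 2-fold. Microglia of the 2 libraries also differed in depth, with medians of 7150.0 and 3979 UMIs, and the part of depth in these ratios was not tested. In CD8 T cells, 21 of 27 tested genes were lower in the anti-PD-1 library, against 50.8% of all genes, with a median of -0.28 and none past 2-fold, as 2.72% of all genes were. The lowest ratios there were those of Stard4, at -0.57 (-1.05 to -0.27), and Idi1, at -0.57 (-1.08 to -0.26) with 22.0 and 35.0 CPM, and the highest was that of Fdft1, at 0.43 (0.04 to 1.03) with 28.3 and 19.7 CPM. No tested member passed 2-fold in border macrophages, conventional dendritic cells, CD4 T cells, other T cells or B cells (16, 19, 19, 23 and 10 tested), where 1.41%, 3.97%, 2.39%, 3.27% and 4.16% of all genes did.

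The difference between the libraries was smaller among oligodendrocytes with a weak interferon response. Oligodendrocytes were split by the share of their UMIs in 18 interferon response genes, such as B2m, Irf1 and Gbp2, none of which is a member: of 2280 anti-PD-1 oligodendrocytes 1230, and of 1871 anti-TIGIT oligodendrocytes 134, had at least 20 such UMIs per 10000. The median of the anti-PD-1 over anti-TIGIT ratios was -0.03 among cells below that level, and 17 of 30 genes were below 0, against 50% of all genes. Hmgcs1 stood at 982 (961 to 1003) and 896 (880.2 to 913) CPM in these cells, Cyp51 at 282 and 276 and Scd2, which was higher in the anti-PD-1 library, at 3540.0 (3501 to 3580.0) and 2778 (2749 to 2807). Among cells at or above the level, the median was -0.42 and 25 genes were below 0, against 52.4% of all genes. The interferon genes themselves were not matched there: they summed to 15170.0 CPM for anti-PD-1 and 7411 CPM for anti-TIGIT.

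Within the anti-PD-1 library, oligodendrocytes with the stronger interferon response held less of 29 of the 30 genes, against 58% of all genes, with a median ratio of -0.55 beside -0.04. None was past 2-fold at this level, where 3.8% of all genes were higher and 0.175% lower. Hmgcs1 stood at 528 (514 to 544) CPM in the stronger and 982 (961 to 1003) in the weaker responders, a ratio of -0.89 (-0.95 to -0.84). Next came Scd1 at -0.87 (-1.05 to -0.78), Cyp51 at -0.85 (-0.96 to -0.77), Acat2 at -0.82 (-1.06 to -0.71) and Msmo1 at -0.81 (-0.90 to -0.75). The gene above 0 was Srebf1, at 0.15 (-0.06 to 0.41), and the ratios nearest to 0 were those of Acaca at -0.03 (-0.12 to 0.06), Ggps1 at -0.07 (-0.29 to 0.13), Ebp at -0.13 (-0.26 to -0.01) and Hsd17b7 at -0.14 (-0.42 to 0.08). The other members lay between -0.80 (Mvd) and -0.23 (Mvk). By group the medians were -0.67 for the mevalonate arm, -0.58 for the sterol arm, -0.52 for fatty acid synthesis and -0.42 for control and transport.

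The levels were graded. Between under 5 and up to 50 interferon UMIs per 10000, the median of the 30 genes stayed level (0.03 in the 170 cells from 20 to 50), and it then stood at -0.49 in 286 cells from 50 to 100, -0.66 in 415 cells from 100 to 200 and -0.99 in 359 cells at 200 and over. Hmgcs1 went through 957, 1063, 1103, 635, 422 and 233 CPM over the 6 bins. Sqle went through 129.8, 138, 156, 85.8, 74.1 and 41.8 CPM, so both were highest in the third bin and lowest in the last. Between the first and last bins, which were compared after the data were seen, 14 of the 30 genes were at least 2-fold lower, against 2.09% of all genes. None was 2-fold higher, as 3.42% of all genes were, and 29 were below 0, against 60.9%. The lowest was Hmgcs1 at -2.01 (-2.16 to -1.92), then came Cyp51 at -1.63 (-1.89 to -1.49), Scd1 at -1.597 (-1.98 to -1.42), Mvd at -1.59 (-2.62 to -1.42), Acat2 at -1.55 (-2.09 to -1.36) and Sqle at -1.53 (-1.94 to -1.35). The others past 2-fold were Msmo1 at -1.52, Sc5d at -1.33, Idi1 at -1.29, Fdps at -1.25, Lss at -1.19, Tm7sf2 at -1.18, Fdft1 at -1.04 and Insig1 at -1.01. Just short of that size were Nsdhl at -0.99, Scd2 at -0.99 and Acly at -0.96. Srebf2, the factor that drives the sterol genes, was at -0.81 (-1.11 to -0.62), while Srebf1 was at 0.45 (0.17 to 0.84).

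**Figure D3:**
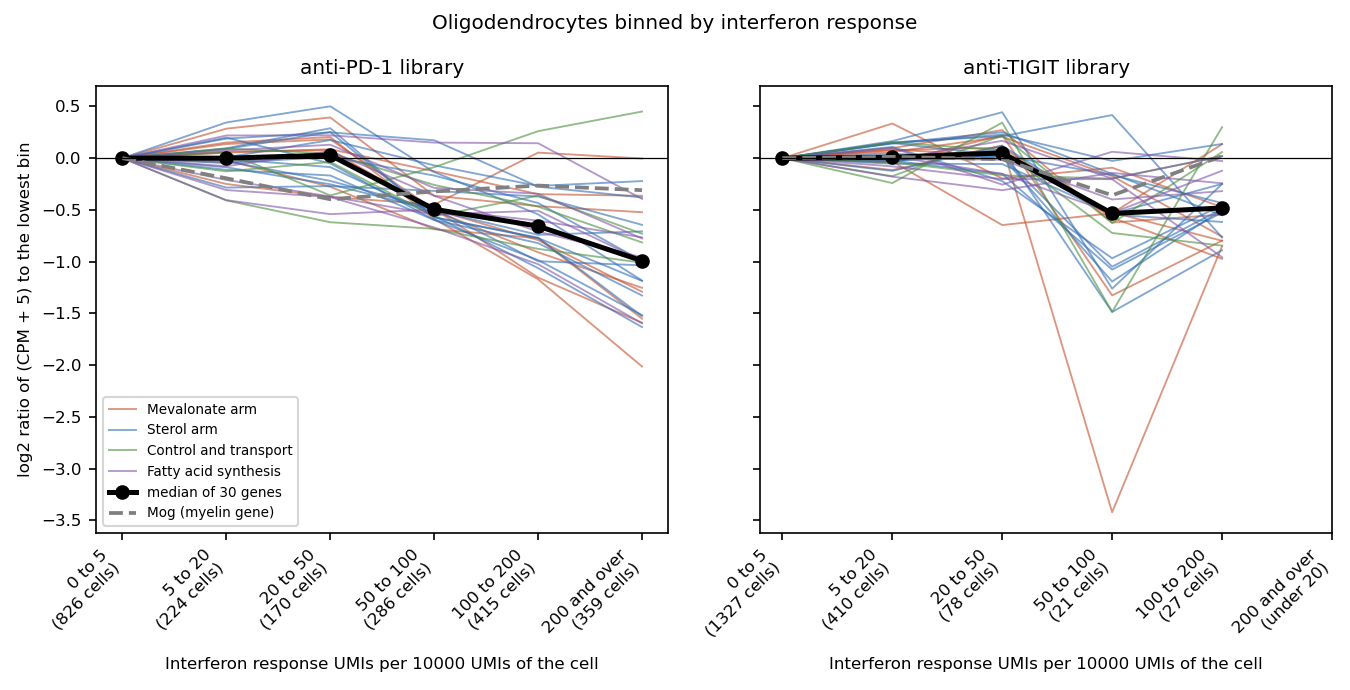
Oligodendrocytes binned by their share of interferon response UMIs (horizontal axis, with the number of cells), in each library; thin lines are the 30 genes by group, the black line their median and the grey line Mog, a myelin gene, as the log2 ratio of (CPM + 5) to the lowest bin. The median in the anti-PD-1 library is level up to 50 and then lies at -0.49, -0.66 and -0.99; bins of under 20 cells are left out.

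Other measures moved along the same range, and their part in these ratios was not tested. Mog went from 2014 to 1624 CPM (a ratio of -0.31) between the first and last bins, while Mbp was at -0.04. The 6 myelin glycolipid genes had a median of -0.31, the further fatty acid genes -0.55, the further sterol genes -0.40 and the efflux, storage and release genes -0.15, each nearer to 0 than the -0.99 of the 30 genes. Abca1, which exports cholesterol and is not among the 30, stood at 29.4 CPM in stronger and 17.6 CPM in weaker responders (0.61). It did not stand for the efflux, storage and release genes as a list. In that split of the anti-PD-1 library 5 of the 8 tested were below 0, against 58% of all genes. Their median was -0.07, beside -0.04 over all genes. Median depth was 6989 and 6824.5 UMIs in the 2 sets. All 6 T cell markers were detected in stronger and in weaker responders, at summed levels of 26.1 and 6.51 CPM. Of 6 microglia markers, all were detected in stronger and 5 in weaker responders, where Slc2a5 was at 0, and they summed to 61.2 and 62.2 CPM. Cells with Xist and no Y-linked UMI were 15.8% of stronger and 40.2% of weaker responders, and the median ratio of the members was -0.80 within Xist-positive cells and -0.44 within cells with Y-linked transcripts.

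A marker pair of reactive oligodendrocytes went with higher levels of most members among weak interferon responders, and among strong ones the medians were near 0. Serpina3n, a protease inhibitor, and C4b, a complement component, which reactive oligodendrocytes express, summed to 2003 CPM in stronger and 401 CPM in weaker interferon responders of the anti-PD-1 library. Among weak responders, cells with at least 10 UMIs of these genes per 10000 had a member median of 0.24 over the other cells (76 against 974 cells) and 0.14 in the anti-TIGIT library (148 against 1589), with 5 and 7 of 30 genes below 0, against 55.5% and 56.2% of all genes. Hmgcs1 was at 0.57 (0.47 to 0.66) and 0.34 (0.26 to 0.43) and Scd2 at -0.38 (-0.44 to -0.31) and -0.05 (-0.11 to 0.00) in that comparison. Among strong responders the medians were 0.0237 for anti-PD-1 (768 against 462 cells, 14 of 30 genes below 0) and -0.0487 for anti-TIGIT (35 against 99 cells, 19 below 0). With strong and weak interferon responders compared only among cells low in Serpina3n and C4b, the medians were -0.55 (462 against 974 cells) and -0.16 (99 against 1589). Among cells high in the pair they were -0.83 (768 against 76 cells) and -0.35 (35 against 148), and the differences between these sets of cells were not tested.

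In the anti-TIGIT library the interferon split gave a smaller difference on few cells. The median was -0.19 for 134 stronger against 1737 weaker responders, beside -0.03 over all genes, and 23 of 30 genes were below 0, against 55% of all genes. No member was past 2-fold, where 1.15% of all genes were higher and 0.667% lower. Hmgcs1 stood at 853 (794 to 915) and 896 (880.2 to 913) CPM, which overlap. This direction was lost when cells were thinned to 1000 UMIs, with 14 genes below 0, and when cells were split at their median interferon share, with 11. The 14 is not out of 30, because low members fell short of 50 counts after thinning. Stard4, for example, had a UMI in 21 of 1859 thinned oligodendrocytes. The share of all genes beside these counts is not given here. Of the 134 cells, 78 lay between 20 and 50 interferon UMIs per 10000, where the median was 0.05, and it was -0.53 in 21 cells from 50 to 100 and -0.48 in 27 cells from 100 to 200. Hmgcs1 was at 571 and 603 CPM in those last bins against 882 in the first. Whether the relation differs between the libraries was not tested.

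Precursors and fibroblasts of the anti-PD-1 library gave other counts than oligodendrocytes. In precursors, 12 of 28 tested genes were below 0 in 330 stronger against 119 weaker responders, against 59.6% of all genes, with a median of 0.08 beside -0.08. All 8 genes of the mevalonate arm had ratios above 0, among them Hmgcs1 at 0.41 (0.17 to 0.68), with 367 against 274 CPM, and Fdps at 0.63 (0.33 to 0.98), with 265 against 169 CPM, and Sqle of the sterol arm was at 0.68 (0.18 to 1.32). The 4 control and transport genes were all below 0: Stard4 at -0.84 (-1.70 to -0.21), Srebf1 at -0.71 (-1.47 to -0.10), Insig1 at -0.65 (-1.18 to -0.20) and Srebf2 at -0.49 (-0.99 to -0.03). Stronger responders among precursors were also deeper, with 6136.5 against 4327 UMIs. In fibroblasts, 3 of 16 tested genes were below 0 in 123 against 98 cells, against 52.3% of all genes, with a median of 0.34, and Cyp51 stood at 61.5 against 24.1 CPM, a ratio of 1.20 (0.58 to 2.19). The differences between these cell types were not tested. Nearly all microglia, 1077 of 1087 in the anti-PD-1 library, were above the interferon level, so they could not be split.

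**Figure D4:**
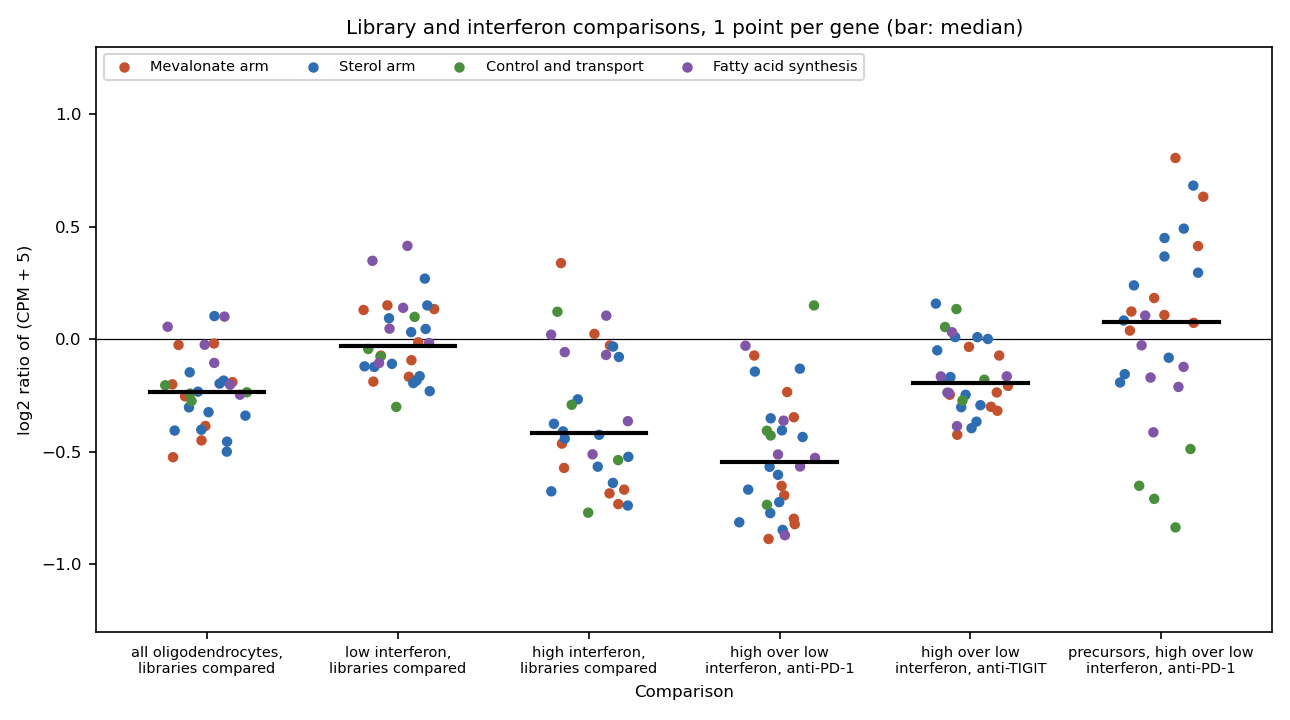
log2 ratio of (CPM + 5) for each gene (points, coloured by group; bars are medians) when the libraries are compared in all, weakly and strongly interferon-responding oligodendrocytes, and when strong are compared with weak responders within a library. The medians are -0.23, -0.03, -0.42, -0.55, -0.19 and, in precursors, 0.08.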

How the data were processed

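The processed files of both libraries are gene-by-barcode matrices of UMI counts that the authors deposited; per the file headers they came from Cell Ranger 8.0.0 (anti-PD-1) and 8.0.1 (anti-TIGIT). The submitters' processing notes name Cell Ranger, Seurat 5.0.3, R 4.1.1 and the genome build mm10. Nerves had been cleared of debris and myelin before sorting, per the labels' protocols, and the cDNA kit was a 5′ kit.

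From these counts, barcodes needed 200 genes or more and a mitochondrial share of UMIs no higher than 10% (39 and 89 fell under the first limit and 107 and 176 passed the second), and 576 and 155 doublets called by Scrublet in scanpy 1.11.5 were removed. A cell entered a class when it held a minimum number of that class's markers and those of no other class; the minimum numbers were set after marker counts were seen. UMIs were summed per class and library and divided by the class total to CPM. Classes of at least 50 cells were used within a library and of at least 100 in both for comparisons between libraries. Genes needed 50 counts over the compared classes, the pseudocount was 5 CPM, and immune and glial classes were weighted equally. Intervals are exact Poisson for levels, exact conditional binomial for ratios of a pair of classes, Poisson error propagated on the log scale for glia over immune, and Clopper-Pearson for shares of cells.

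Every member is given with a value in both libraries; members past 2-fold, and the 5 largest differences in each direction between libraries in oligodendrocytes, in full; other genes of the pathways as counts past 2-fold with the values of those past it. The members and lists were chosen with earlier results of these data known. The calculation was tested on simulated data. Alternatives changed doublet removal, cell filters, pseudocount, count filter, gates, depth, class weighting, the classes compared, free RNA, scaling, sex of the cells and the interferon split. Python 3.11.15, numpy 2.4.6, scipy 1.17.1, pandas 2.3.3 and matplotlib 3.10.9 were used. Some genes of the wider lists are not reported here.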

Additional observations from a re-analysis of the deposited data

How the results depend on the processing

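With 1 library per group, no alternative leaves out a replicate. No paired analysis was possible because each group has 1 library. Of 145 recomputed main results, 127 moved by less than their interval or 1.5 times, which does not fix the sign of medians near 0. Over the alternatives, the anti-TIGIT median for strong against weak interferon response ranged from -0.29 to 0.09, its values above 0 coming from thinning and the median split. The median between the libraries ranged from -0.07 to 0.41 in border macrophages, -0.11 to 0.28 in CD4 T cells, -0.16 to 0.06 in other T cells and -0.25 to 0.20 in B cells. The median ratio of glia over immune cells, 2.03 in the anti-PD-1 and 2.11 in the anti-TIGIT library, changed to 2.36 and 2.48 when 1 CPM was added in place of 5, and to 1.33 and 1.48 when 20 CPM was. It was 2.37 and 2.43 with oligodendrocytes as the glia, 1.43 and 1.62 with precursors, and 3.28 and 3.15 after subtracting free RNA by the Mbp share. That subtraction lowers immune levels only, down to 0, so the ratio could only rise. In CD8 T cells 23 and 20 of the 30 members were at or below the subtracted level. Immune cells also make golli transcripts of Mbp, so its share is not free RNA alone. In the anti-PD-1 library the median ratio of glia over immune cells was 1.81 when cells were thinned to 1000 UMIs and 2.28 with UMIs summed over classes. The count of members at least 2-fold higher ranged from 19 to 27 and from 21 to 27. The median ratio of the libraries in oligodendrocytes was -0.11 in Xist-positive cells. The anti-TIGIT count of members lower with a strong interferon response was 14 after thinning and 11 with a split at the median share. Among alternatives chosen after seeing the data, weakly responding oligodendrocytes gave a median of -0.0296 with 17 members below 0 between the libraries, and Xist-positive cells gave -0.80 for strong against weak responders in the anti-PD-1 library. The cause of these shifts was not tested. Cell number limits the anti-TIGIT precursors, at 69 cells, and the 134 strongly responding anti-TIGIT oligodendrocytes.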
